A study of Rattus norvegicus with 6 samples.

Results

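miR-31a is a microRNA (miRNA), a short RNA of about the length of the sequences printed below that lowers the output of messenger RNAs it pairs with. Its 2 arms, rno-miR-31a-5p and rno-miR-31a-3p, were 2 of the 764 rat miRNA rows in the deposited table and all whose name begins with rno-miR-31a-. They were chosen by the RPM difference of miR-31a-5p between HO-1 knockout and wild type in these same libraries, so its genotype difference is described here without a test, and so is everything else about the 2 arms that rests on that comparison.

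Small RNA was sequenced from tissue labelled testicle of male Sprague Dawley rats. The knockout group held 3 libraries from HO-1 knockout rats and the wild type group held 3 libraries from WT rats, where HO-1 is heme oxygenase 1, the inducible enzyme that degrades heme. Both groups shared the same injury, a torsion of the left testicle by 720° for 2 h followed by 3 days of reperfusion, and no uninjured library was analysed here. The labels give neither the animals' age nor whether each library is a separate animal, so spreads between libraries may be technical in part.

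An miRNA gene is transcribed as a longer RNA that folds into a hairpin, and Drosha and Dicer cut the hairpin to a duplex of its 5p and 3p arms. Usually 1 arm of the duplex is kept by an Argonaute protein and finds its targets with its seed, bases 2 to 8, while the other arm is mostly degraded. miR-31 is known from smooth muscle, skin epithelium and T cells, and its reported targets in human cells include the messenger RNAs of the hypoxia regulator FIH, the small GTPase RhoA and the regulatory T cell factor FOXP3. None of these messenger RNAs was measured by this assay.

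The sequences show how the rows at this locus relate to each other, since the hairpin gives both arms and its opposite strand is annotated with an miRNA of its own. They are RefSeq's, on the GRCr8 build of the rat genome, written 5′ to 3′. Capitals mark the seed in the mature miR-31a arms, the mature arms in the hairpin, and in miR-31b the bases that differ from miR-31a-3p.
miR-31a-5p: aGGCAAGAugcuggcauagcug
miR-31a-3p: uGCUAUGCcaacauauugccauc
Mir31 hairpin: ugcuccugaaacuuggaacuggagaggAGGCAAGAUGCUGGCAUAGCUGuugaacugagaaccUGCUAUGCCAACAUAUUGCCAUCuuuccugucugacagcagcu
miR-31b: cuaugccaGcauCuugccU

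The hairpin lies on the minus strand at chr5:108714849-108714954 and spans 106 bases, with the 5p arm at hairpin bases 28 to 49 and the 3p arm at 64 to 86. In RefSeq's gene table the locus sits within the span of the long noncoding RNA gene LOC130062807, and the nearest protein-coding genes on either side are Ifne, which encodes interferon epsilon, and C5h9orf85. In the fold of lowest predicted energy, 17 of the 22 bases of miR-31a-5p paired with miR-31a-3p, including 6 of the 7 seed bases. Among the 724 mature rat sequences in RefSeq's table, 1 had the seed of miR-31a-5p and 1 had that of miR-31a-3p, namely the arms themselves. No other row of these libraries with a sequence there therefore shares either seed.

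miR-31b, which RefSeq assigns to the gene Mir3554, is annotated on the plus strand at chr5:108714909-108714927, opposite the 5p arm. Its 19 bases are the exact complement of bases 1 to 19 of miR-31a-5p. They also resemble miR-31a-3p, from which they differ at 3 places, counted from the 5′ end of miR-31b with its base given before the position and that of miR-31a-3p after it: G9A, C13A and U19A. miR-31b had 0 reads in each of the 6 libraries, which allows up to 0.299 to 0.361 RPM per library (3 reads, counting error only). This concerns the miR-31b row alone; other products of the opposite strand were not analysed here. The sources used here do not say how reads that match several rows were assigned.

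Library totals, recovered from the size of 1 read in each column, were 8300536 to 10042673 reads, and values are reads per 1000000 of these reads (RPM). The labelled tissue was not matched by its markers. miR-122-5p, a miRNA of hepatocytes, held 46.4%, 40.3% and 43.7% of the reads in knockout libraries 1 to 3, against 32.7%, 36.3% and 36.6% in wild type libraries 1 to 3. The 20 fixed markers of germ cells and testis summed to 28.9 to 33.6 RPM in knockout libraries and 39.7 to 55.8 RPM in wild type libraries. Of these 20 markers, 6 were at 0 in every library, miR-202-3p, miR-878, miR-880-3p, miR-883-3p, miR-463-3p and miR-465-5p, and only miR-34c-5p averaged at least 10 RPM. Which tissue the values below describe is therefore not settled, and the part of the miR-122-5p difference in them was not tested beyond the rescaled values given with them.

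miR-31a-5p was one of the more abundant miRNAs of both genotypes and was lower in all knockout libraries. It stood at 507, 656 and 628 RPM in knockout libraries 1 to 3, and at 1513, 1393 and 1344 RPM in wild type libraries 1 to 3. These values rest on 4209, 6435 and 5650 reads in the knockout libraries and 15190, 12715 and 12734 reads in the wild type libraries. The genotypes did not overlap: the lowest wild type library was 2.05 times the highest knockout library, and the libraries of 1 genotype stayed close together.

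The mean of miR-31a-5p was 597 ± 79.2 RPM in the knockout and 1416 ± 86.9 RPM in the wild type (SD, n = 3 each), 2.37 times higher in the wild type. On the log2(RPM + 1) scale the knockout minus wild type difference was -1.25 (SE 0.12). In the order of levels within a library miR-31a-5p ranked 54, 50 and 51 in knockout libraries 1 to 3 and 39 in each wild type library. Over all 6 libraries its mean level took rank 44, between miR-140-3p, a miRNA known from cartilage, and miR-181a-5p, known from lymphocyte development. miR-140-3p averaged 930 ± 175 RPM in the knockout and 1227 ± 178 RPM in the wild type. miR-181a-5p averaged 853 ± 89.9 RPM in the knockout and 1157 ± 149 RPM in the wild type. miR-31a-5p thus lay below both neighbours in the knockout and above both in the wild type. As their means over all 6 libraries are close, this crossing restates the wider genotype gap of miR-31a-5p. In the wild type the distance of miR-31a-5p from miR-140-3p was close to the SD of miR-140-3p and larger than its own SD. In the knockout both neighbours were higher than miR-31a-5p by more than the SDs.

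The other arm, miR-31a-3p, was rare and showed the same order of genotypes. It had 6.63, 10.5 and 9.23 RPM in knockout libraries 1 to 3, from 55, 103 and 83 reads. Wild type libraries 1 to 3 had 25.9, 18.2 and 15.3 RPM, from 260, 166 and 145 reads. Knockout library 1 was lowest and wild type library 1 highest for both arms, and again the genotypes did not overlap, the lowest wild type library being 1.46 times the highest knockout library. Means were 8.79 ± 1.97 RPM in the knockout and 19.8 ± 5.48 RPM in the wild type (SD, n = 3 each), 2.25 times higher in the wild type, and the difference on the log2(RPM + 1) scale was -1.08 (SE 0.27). The libraries of a genotype spread more widely for the rare arm, with a coefficient of variation of 22.5% in the knockout and 27.7% in the wild type, against 13.3% in the knockout and 6.13% in the wild type for miR-31a-5p.

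**Figure D1:**
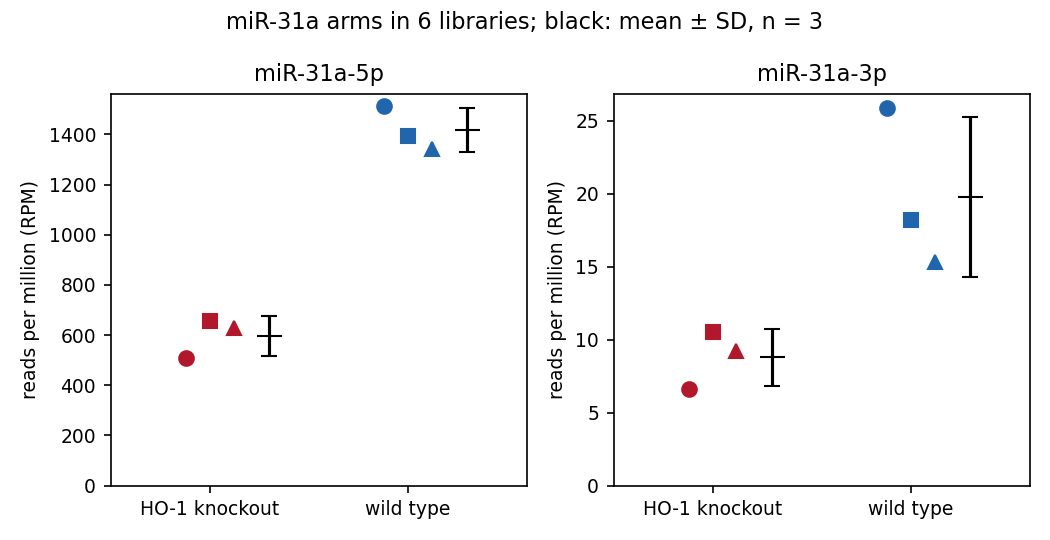
Level of each miR-31a arm in RPM, with HO-1 knockout libraries in red and wild type libraries in blue; circles, squares and triangles are libraries 1, 2 and 3 of a genotype and black bars the mean ± SD (n = 3). The knockout libraries of miR-31a-5p sit between 507 and 656 RPM and those of the wild type between 1344 and 1513 RPM, and the 3p arm shows the same separation at a far lower level.

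Low values in the knockout were common among miRNAs in this comparison. Of the 218 rows with a mean of at least 10 RPM, 91 had all 3 knockout libraries below all 3 wild type libraries, which is 41.7%, and both miR-31a arms were among them. In limma over the 570 rows above 0, 32 miRNAs (5.61%) passed a Benjamini-Hochberg adjusted p of 0.05 as lower in the knockout and 4 (0.702%) as higher. Since the same contrast led to the choice of miR-31a-5p, nothing is read from its place among them. The 218 rows had a median log2 change of -0.29, so relative to that median miR-31a-5p was at -0.97 and miR-31a-3p at -0.79. Of the 218 rows, 6 had a more negative log2 change than miR-31a-5p and 10 a more negative one than miR-31a-3p. With 1 library left out these counts ran from 3, without wild type library 1, to 9, without wild type library 2, for miR-31a-5p. For miR-31a-3p they ran from 8 to 15, and a pseudocount of 5 gave 19. In bulk tissue, fewer cells of a type that holds an miRNA and less of that miRNA per cell cannot be told apart.

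**Figure D2:**
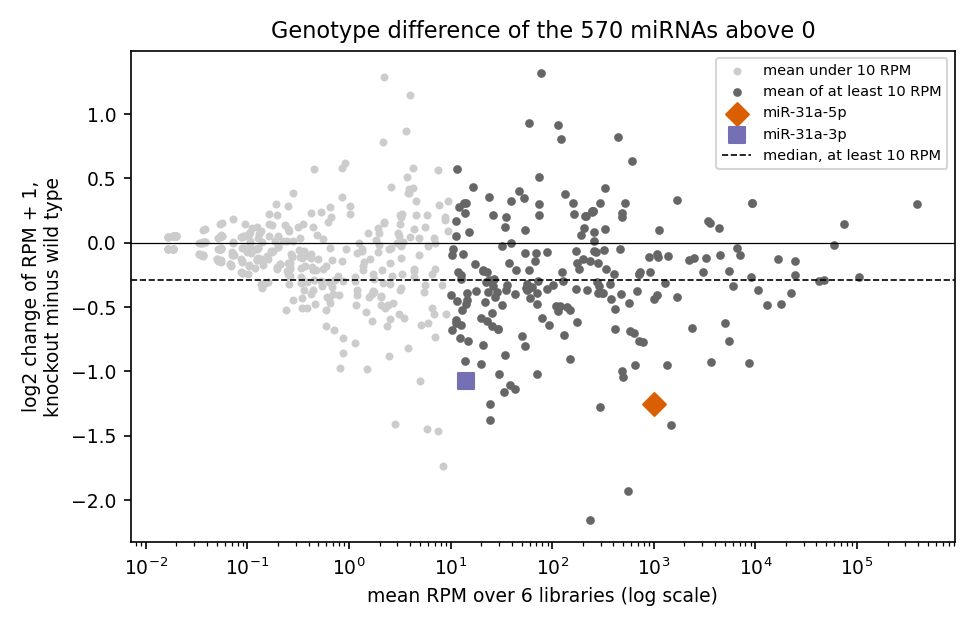
Log2 change of RPM + 1, knockout minus wild type, against mean RPM over the 6 libraries on a log axis, for the 570 rows above 0. The dashed line is the median of rows of at least 10 RPM, at -0.29; miR-31a-5p (diamond, -1.25) and miR-31a-3p (square, -1.08) lie near the lower edge of the cloud at their level.

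The difference was smaller and kept its direction with another total. With miR-122-5p left out of the totals, miR-31a-5p had 945.5, 1098 and 1115 reads per 1000000 other reads in knockout libraries 1 to 3, and 2247, 2186 and 2118 in wild type libraries 1 to 3. Group means on that scale were 1053 ± 93.4 in the knockout and 2184 ± 64.8 in the wild type (SD, n = 3 each), so the wild type stood 2.07 times higher. For miR-31a-3p they were 15.4 ± 2.73 in the knockout and 30.4 ± 7.35 in the wild type, 1.97 times higher in the wild type. Scaling by trimmed means (TMM) gave a log2 change of -1.04 for miR-31a-5p and -0.88 for miR-31a-3p, while the median of the 218 rows became -0.08. Relative to that median the arms were at -0.96 and -0.80, close to their values before rescaling. Rescaling shifts all rows of a library by nearly the same log2 amount, so this closeness was fixed in advance. Without miR-122-5p in the totals the median of the 218 rows was -0.10, beside -0.29 before. A shift of that size could not remove the difference of either arm, so its remaining is no test.

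The balance of the 2 arms overlapped between genotypes. miR-31a-3p made up 1.29%, 1.57% and 1.45% of the miR-31a reads in knockout libraries 1 to 3, against 1.68%, 1.29% and 1.13% in wild type libraries 1 to 3. The highest and the lowest share were both found in the wild type, and all 3 knockout libraries lay between them. Exact 95% binomial intervals, which cover counting error only, ran from 0.973% to 1.68% in knockout library 1, which had the fewest reads. They ran from 1.49% to 1.90% in wild type library 1 and from 0.951% to 1.32% in wild type library 3, so these libraries of 1 genotype differed by more than counting error. Group means were 1.44% ± 0.14 in the knockout and 1.37% ± 0.29 in the wild type (SD, n = 3 each), a difference of 0.0717 percentage points that was smaller than either SD.

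Expressed the other way, each 3p read stood beside 69.0 ± 7.07 reads of the 5p arm in the knockout and 74.3 ± 14.8 in the wild type. This arm ratio does not depend on library totals or on miR-122-5p. Among 127 precursors with both arms listed and at least 100 reads per library on average, 71 had more 5p reads and 56 more 3p reads. Pooled over the libraries the minor arm of miR-31a held 1.41% of its reads, close to the median of 1.19% over these precursors, with 68 below it and 58 above. The shares of the genotypes did not overlap for 40 of the 127 precursors (31.5%), and miR-31a was not among those 40. The difference in 3p share between genotypes was larger in size for 85 of the other precursors than for miR-31a.

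**Figure D3:**
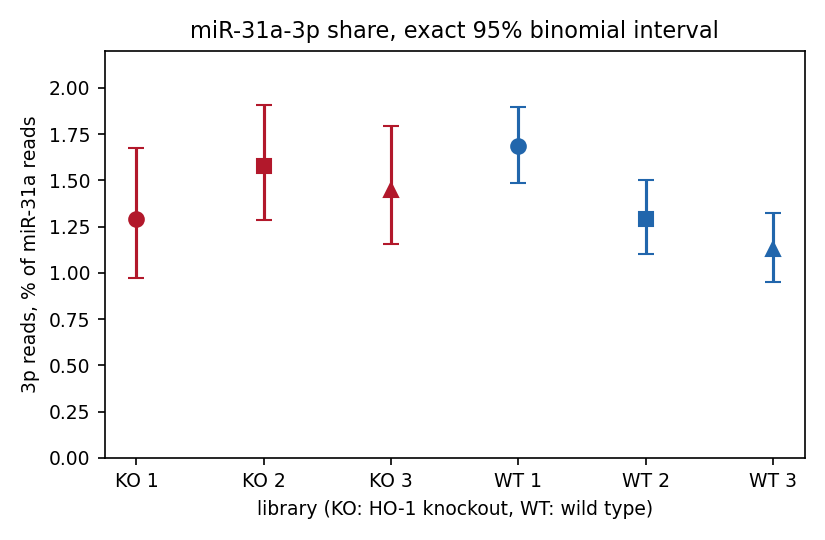
miR-31a-3p reads as a percent of all miR-31a reads in each library, with HO-1 knockout libraries in red on the left and wild type libraries in blue on the right; bars are exact 95% binomial intervals for counting error. The knockout libraries, at 1.29% to 1.57%, lie within the range of the wild type libraries, 1.13% to 1.68%.

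The profile of miR-31a-5p over the 6 libraries was compared with that of the 217 other rows of at least 10 RPM, on log2(RPM + 1). Since the genotypes form separate clusters for miR-31a-5p, Pearson's r over these 6 libraries mostly measures whether a miRNA is lower in the knockout. All values of a library also share its total, and r is given only as a description of likeness. Of the 217 rows, 46 had an r above 0.9 and 7 an r below -0.9, and the median r was 0.73. The 5 highest were miR-100-5p (r 0.99), miR-3068-5p (0.99), miR-30a-5p (0.99), miR-20a-5p (0.98) and miR-16-5p (0.98). miR-100-5p belongs to the miR-99 family, miR-20a-5p to the cluster of miR-17 and miR-16-5p to the miR-15 family known for cell cycle targets.

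High r did not mean an equal size of difference. miR-3068-5p had 10.4, 11.0 and 10.8 RPM in knockout libraries 1 to 3 and 12.7, 12.8 and 12.8 RPM in wild type libraries 1 to 3, a far smaller step than that of miR-31a-5p. A distance that also counts size, the root mean square gap between centred log2 profiles, was smallest for miR-125b-2-3p (0.14), miR-20a-5p (0.16), miR-143-5p (0.16), miR-15a-5p (0.17) and miR-30b-5p (0.19), against a median of 0.53 over the 217 rows. miR-31a-3p, from the same hairpin, came next at rank 6 with a distance of 0.20, and was at rank 24 by r (0.95). That distance rank depended on single libraries, at 2 without wild type library 3 and 10 without knockout library 1.

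Both sets of 5 were chosen for likeness over these same libraries, so traits they share with miR-31a-5p largely follow from that choice. miR-20a-5p was the miRNA found in both sets. It stood at 267, 338 and 377 RPM in knockout libraries 1 to 3 and at 647, 630 and 665 RPM in wild type libraries 1 to 3. Like miR-31a-5p it was lowest in knockout library 1, and its 2 genotypes did not overlap. miR-125b-2-3p, the passenger arm of a miR-125b hairpin, had 15.9, 23.6 and 21.8 RPM in knockout libraries 1 to 3 and 58.7, 40.0 and 41.9 RPM in wild type libraries 1 to 3, so that it was also lowest in knockout library 1 and highest in wild type library 1.

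The lowest r belonged to miR-363-3p (-0.99), let-7d-5p (-0.97) and miR-122-5p (-0.95). For miR-122-5p this held within genotypes as well: the knockout library with the most miR-122-5p, library 1, had the least miR-31a-5p, and the wild type library with the least, library 1, had the most miR-31a-5p. Over the deviations of the 6 libraries from their genotype means, r was -0.88 for miR-122-5p, 0.89 for miR-31a-3p and 0.83 for miR-100-5p, as a description of values that share the library total. With totals rescaled, between 20 and 24 of the 217 rows had an r above 0.9.

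The sequences of some of the most alike miRNAs, not all, are shown with their seeds in capitals. As given above, no other mature rat sequence in RefSeq's table has the seed of either miR-31a arm. A shared seed was therefore not possible here, and the sequences are shown as a description.
miR-100-5p: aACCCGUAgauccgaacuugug
miR-30a-5p: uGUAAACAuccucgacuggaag
miR-20a-5p: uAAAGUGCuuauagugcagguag
miR-16-5p: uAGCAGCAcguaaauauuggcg
miR-125b-2-3p: aCAAGUCAggcucuugggaccu
The seeds of these 5 RefSeq sequences (GRCr8) differ from those of both miR-31a arms.

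**Figure D4:**
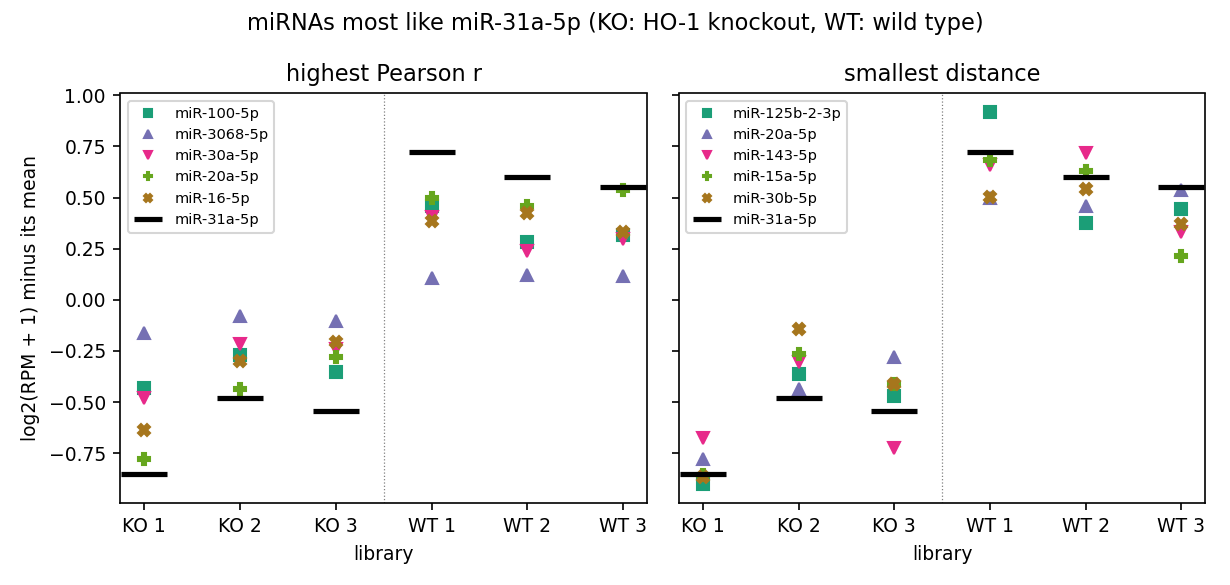
Log2(RPM + 1) minus its mean over the 6 libraries for miR-31a-5p (black bars) and for the 5 miRNAs with the highest Pearson r (left) and the 5 with the smallest root mean square distance (right); in each panel the 3 HO-1 knockout libraries are left of the 3 wild type libraries. All profiles step between genotypes. Those on the left do so by less than miR-31a-5p, miR-3068-5p the least. Those on the right, among them miR-20a-5p of both panels, come closer to the size of the miR-31a-5p step.

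To see which other miRNAs moved alongside, 8 lists of cell type and injury miRNAs were read from the same fit, and miR-31a-5p was then expressed per 1000 reads of each list within a library. Such a ratio does not depend on library totals. Of 61 tested members of these lists, 15 fell in the knockout (adjusted p below 0.05 in the same limma fit) and 0 rose. Over all 570 rows, 5.61% were called lower and 0.702% higher. The lists were chosen with earlier results of these data known, so no enrichment is read from these shares. Members and rows were also not matched in level, and the scale of the fit understates changes of rare miRNAs. Some of the 15 are arms of the same hairpin and so are not independent. The median log2 change of the 61 members was -0.28, beside -0.12 over all 570 and -0.29 over the 218 rows of at least 10 RPM. The 15 calls depended on single libraries: with 1 library left out between 3 and 9 members were called, 3 of them without knockout library 3.

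Against the smooth muscle miRNAs miR-143 and miR-145, miR-31a-5p overlapped between genotypes. It had 80.4, 84.1 and 107 reads per 1000 list reads in knockout libraries 1 to 3, and 104, 106 and 137 in wild type libraries 1 to 3. In this list 3 of 4 members fell, miR-143-3p, miR-143-5p and miR-145-5p, with log2 changes of -0.93, -1.14 and -0.95. miR-145-3p did not pass and went the other way, with a log2 change of 0.08. The list's median log2 change was -0.94. All 3 calls were lost in at least 3 of the 6 fits with 1 library left out.

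The epithelial list gave a similar overlap. miR-31a-5p had 495.5, 611 and 616 reads per 1000 list reads in knockout libraries 1 to 3, and 606, 733 and 540 in wild type libraries 1 to 3. Of 13 tested members 6 fell, miR-200a-3p, miR-200a-5p, miR-200b-3p, miR-200b-5p, miR-429 and miR-203a-3p. The last, a miRNA of skin epithelium, had a log2 change of -0.68, and the list's median was -0.53. miR-200b-3p remained called with any 1 library left out, while miR-200a-3p was lost in 1 such fit and the other 4 in at least 3. The 7 members not called went both ways. miR-200c-3p and miR-141-5p were higher in the knockout, with log2 changes of 0.35 and 0.14. Lower were miR-200c-5p, miR-141-3p, miR-203a-5p, miR-203b-3p and miR-205, at -0.05, -0.09, -0.08, -0.53 and -0.39.

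Against the fibroblast miRNAs miR-199a and miR-214, the groups overlapped most widely. The ratio was 550, 507 and 610 in knockout libraries 1 to 3, and 327, 758 and 598 in wild type libraries 1 to 3, where library 1 was the lowest of all 6 and held the most miR-199a-3p. Of 4 members 1 fell, miR-199a-3p with a log2 change of -1.42, a call lost in 5 of the 6 fits with 1 library left out. The 3 members not called were lower too. miR-199a-5p was at -1.045, miR-214-3p at -1.253 and miR-214-5p, which averaged 0.07 RPM, at -0.176. The list's median was -1.15.

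Against the other 5 lists miR-31a-5p stayed lower in every knockout library. Per 1000 reads of the endothelial miR-126a arms it had 26.4, 30.8 and 32.8 reads in knockout libraries 1 to 3, and 56.8, 51.6 and 53.3 in wild type libraries 1 to 3. Both of these endothelial arms fell, with log2 changes of -0.39 for miR-126a-3p and -0.77 for miR-126a-5p. The call of miR-126a-3p was lost with every rescaling, in edgeR and DESeq2 on the recovered reads, and in 5 of the 6 fits with 1 library left out, and that of miR-126a-5p in 3 of them.

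Per 1000 reads of the leukocyte list, whose 5 members include miR-142 and miR-223, miR-31a-5p had 583, 694 and 752 reads in knockout libraries 1 to 3, and 1688, 1617 and 1708 in wild type libraries 1 to 3. No leukocyte member passed, and the summed list stood at 836 to 946 RPM in the knockout and 787 to 896 RPM in the wild type. The sums thus overlapped between genotypes, but the members did not share 1 direction. miR-142-3p had 390, 368 and 377 RPM in knockout libraries 1 to 3 and 282, 306 and 260 RPM in wild type libraries 1 to 3, while miR-223-3p, miR-150-5p and miR-342-3p had log2 changes of -0.43, -0.30 and -0.29, and the list's median was -0.29.

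The injury, hypoxia and NF-kB list is dominated by miR-21-5p, and per 1000 of its reads miR-31a-5p had 6.48, 7.82 and 7.78 reads in knockout libraries 1 to 3, and 19.8, 18.7 and 18.6 in wild type libraries 1 to 3. Of its 17 tested members 3 fell, miR-221-3p, miR-221-5p and miR-222-5p, and the list's median log2 change was -0.14. The 14 members not called went both ways. Among them, miR-21-3p, miR-21-5p and miR-34a-5p had log2 changes of 1.15, 0.15 and 0.10, and miR-222-3p and miR-210-3p of -1.02 and -0.72. miR-222-5p was at 0 in every knockout library and at 0.28 ± 0.06 RPM in the wild type, a mean below the limit that 3 reads set, and its call was lost with any 1 library left out. miR-221-3p had a larger genotype gap than miR-31a-5p: per 1000 of its reads, miR-31a-5p had 6649, 7329 and 7309 reads in knockout libraries 1 to 3, and 2799, 4986 and 3800 in wild type libraries 1 to 3, so this ratio was higher in every knockout library.

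For the hepatocyte miR-122 arms the gap was widest, with means of 1.38 ± 0.27 reads of miR-31a-5p per 1000 list reads in the knockout and 4.03 ± 0.50 in the wild type (SD, n = 3 each). For the 20 germ cell and testis markers, which sum to few reads, it was 18645 ± 1005 in the knockout and 30905 ± 4018 in the wild type. Neither list had a member that passed the test, among 2 and 14 tested. The 2 miR-122 arms went opposite ways, with log2 changes of 0.30 for miR-122-5p and -0.10 for miR-122-3p. Pooled over the libraries miR-122-3p held 0.35% of their reads, so the hepatocyte ratio is nearly that of miR-122-5p alone.

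**Figure D5:**
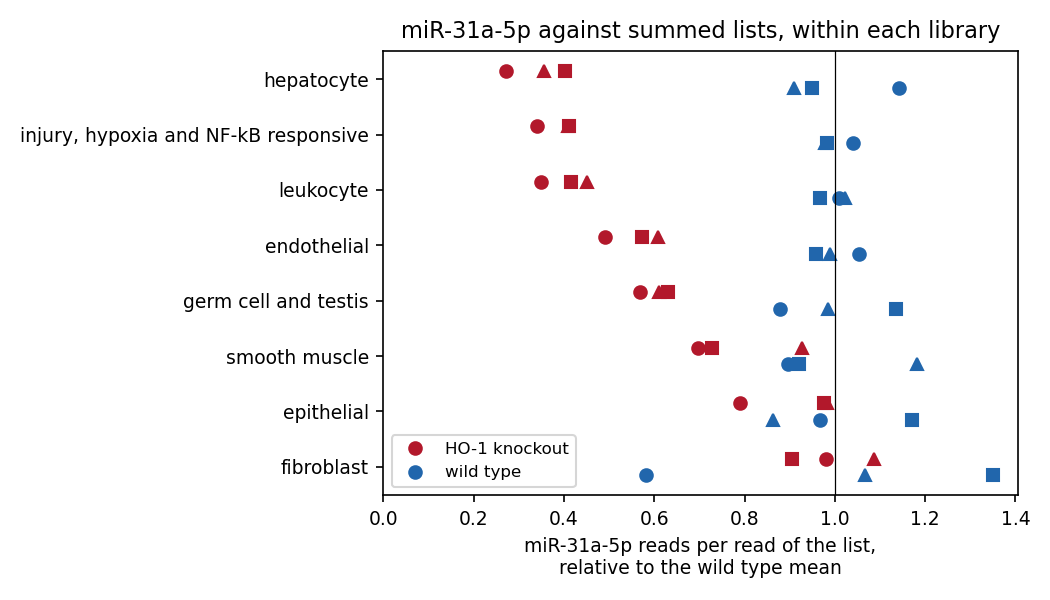
Reads of miR-31a-5p per read of each list within a library, divided by the mean of the 3 wild type libraries, with HO-1 knockout libraries in red above wild type libraries in blue; circles, squares and triangles are libraries 1, 2 and 3 of a genotype. The genotypes overlap for the smooth muscle, epithelial and fibroblast lists and do not overlap for the other 5.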

How the data were processed

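The authors deposited 1 table of 764 rat miRNA rows in reads per 1000000 (RPM), rounded to 2 decimals, with their mean RPM per genotype, log2 fold change and p-value per the file headers; these last columns were not used. The submitters' processing notes list FastQC, BWA, edgeR and rn6 without saying what each was used for; the sources used here give no trimming or mismatch rule. Columns were matched to samples by title, with 0 sample columns unmatched.

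Reads were recovered from the RPM steps: 97.8% to 98.9% of values above 0 matched whole reads to 0.0051 RPM. At other totals 8.9% to 12.9% did so on average. The sums of the reads equalled the totals, but the totals were chosen partly for this. In wild type library 1 the step, 0.0996 RPM, is too close to 0.1 to be seen at low values, and its total rests on higher ones.

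The fit over the 570 rows above 0 used limma 3.58.1 on log2(RPM + 1) with a mean-variance trend, with genotype as the only factor. This scale understates changes of rare miRNAs. edgeR 4.0.16 (61 calls) and DESeq2 1.42.0 (72 calls) on recovered reads were alternatives. Hairpins were folded with RNAfold 2.7.2. Of 724 mature RefSeq sequences, 720 matched a row by name. The members and the 8 lists were chosen with earlier results of these data known. Named miRNAs are the 2 arms, miR-31b, the nearest in level, the 5 highest by r and the 5 nearest by distance, and called or abundant list members; those with the lowest r were chosen after their values were seen.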

Additional observations from a re-analysis of the deposited data

How the results depend on the processing

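Leaving out the 10 most abundant miRNAs from the totals gave 55 calls over all miRNAs in place of 36, edgeR's quasi-likelihood test on recovered reads 61 and DESeq2 on them 72, and with 1 library left out there were 5 to 26. The calls among list members were 15, and 3 to 9 with 1 library left out. The log2 change of miR-31a-5p, -1.25, became -1.04 with TMM scaling, upper-quartile scaling and edgeR, -1.01 with RLE scaling, -1.06 without miR-122-5p in the totals, -0.996 without the 10 most abundant miRNAs and -1.02 in DESeq2, and -1.14 to -1.32 with 1 library left out. That of miR-31a-3p kept its sign in all 17 alternatives. The 3p share differed by -0.0483 to 0.23 percentage points with 1 library left out. The number of rows with an r above 0.9 was 46, and 21 with TMM or RLE scaling, 24 with upper-quartile scaling, 22 without miR-122-5p and 20 without the 10 most abundant, and 40 to 66 with 1 library left out; the cause was not tested. Of the 5 miRNAs with the highest r, 1 to 5 were again among the highest 5 in each alternative, and of the 5 nearest by distance, 3 to 5.

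With the replicate number as a block, 22 miRNAs were called, and the log2 changes of both arms stayed at -1.25 and -1.08. Deviations of libraries with the same number correlated across miRNAs at 0.03, 0.18 and 0.20, not all above 0.1. Pairs with different numbers ran from -0.288 to 0.06, and knockout library 1 correlated better with another number (0.04). The labels give no shared litter, batch or day for equal numbers, and so few pairs cannot decide whether there was one.

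Depth limits miR-31a-3p, with as few as 55 reads in a library, and miR-31b, with none. With 3 libraries a genotype, an exact permutation test cannot fall below the usual threshold, and none was used.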
